A study of Mus musculus with 4 samples.

Results

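The loci described here are 50 piRNA-producing loci of the mouse testis that carry a chromosome band as their name and lie outside 21 listed bands. The rule that picks them uses names only, but the list of bands was drawn up with earlier results of these data known. From the piRNA cluster class of the deposited table, every locus not named after a host gene was taken, and the loci of the listed bands were left out. This gave 50 of the 214 piRNA loci in the table, beside 50 other band-named loci and 114 loci named after a host gene. The study sequenced small RNAs of whole testes from mice aged 16 days, in 2 libraries of an Hsf5 knockdown and 2 libraries of wild-type mice. The labels give no strain, litter or way of knockdown, and in the deposited table the same knockdown libraries go by the name of knockouts. The gene Hsf5 codes for a heat shock factor found in meiotic spermatocytes, and the title of the series ties it to progress through pachynema and to silencing of the LINE1 retrotransposon. The labels call the libraries biological replicates but name no animals, so every p-value below measures only the spread between these libraries. Small RNA reads do not measure Hsf5 mRNA, so the knockdown itself could not be checked here.

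PIWI-interacting RNAs, or piRNAs, are small RNAs of germ cells cut from long single-stranded precursors and loaded onto PIWI proteins, with which they repress transposons and other RNAs. Most piRNAs of the adult mouse testis come from pachytene loci, long non-coding transcription units switched on by the transcription factor A-MYB when spermatocytes enter the pachytene stage. MILI, present from early germ cells on, holds the shorter piRNAs, and MIWI, which appears in pachytene spermatocytes, holds the longer ones. A typical piRNA begins with U and arises from 1 strand.

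The piRNAs shown first are the most abundant sequence of each of the 8 strongest loci, printed 5′ to 3′ with the first base in capitals, because the first base is the one PIWI proteins favour. Each is given as in the deposited table, with T for U.
17-qE1.1-7037: Tagcaggatgtttttggattcaggtctct
11-qE1-9443: Tgaggaaagagtctctgctcaatgacc
15-qE1-8387: Tgtgttgatctatgcatctctgagcatc
15-qE1-3710: Taggaacatgactgctttgtaaagggc
6-qD1-2831: Tgagaaacagctgttctttcctctggatc
6-qC3-6258: Ttatctctgtgatctaactgatgccgtggc
4-qC5-17839: Tcttctttctgatctatctggtctgcactt
4-qD3-2082: Tcacagggctctggatcttttcgaggc

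All 8 began with T, and their lengths ran from 27 to 30 nt. Only the first matched the genome more than once, at 5 places. The sequence of 15-qE1-3710 lay at chr15:83238533-83238559 on the minus strand of the mm39 build, 12922 bases from the start of its locus, and made up 9.80% of the reads of the locus. It had 245 and 310 reads per 1000000 counted reads of the library, or RPM, in knockdown replicates 1 and 2, against 251 and 326 RPM in wild type replicates 1 and 2. The sequence of 4-qC5-17839 lay at chr4:94204863-94204892 on the minus strand. It had 0 and 372 reads in knockdown replicates 1 and 2, against 136 and 276 reads in wild type replicates 1 and 2. The first of these piRNAs was thus present in all 4 libraries and the other was missing from knockdown replicate 1, where a count of 0 allows up to 0.312 RPM, counting error only. The sequence of 17-qE1.1-7037 matched 5 places, so its reads need not all come from that locus. It had 123 and 3141 reads in the knockdown libraries, against 701 and 1161 reads in the wild-type libraries. Within the knockdown its counts were further apart than within the wild type.

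The 50 loci were spread over 16 chromosomes and 32 bands, 21 of them on the plus strand and 29 on the minus strand. In the GENCODE M39 annotation, 37 loci had most of their uniquely placed reads inside a long non-coding gene, 21 of them mainly in its exons and 15 mainly in its introns. Another 11 loci were mainly intergenic and 2 were mainly in a coding gene. One of the last, 2-qE5-4 at chr2:120523070-120545618, had 99.1% of its reads in the coding sequence of Stard9. The loci spanned 122 to 103528 bases, with a median of 17988 bases, and between 97.0% and 100% of the placed reads of each lay on 1 strand. Reads began with U in 74.0% to 95.9% of cases, with a median over loci of 90.5%. None of the 50 loci lay head to head with another locus within 2000 bases, which the choice itself fixes, since every such pair in the table involves a band that was left out.

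Levels covered a wide range. Mean RPM over the 4 libraries ran from 5.81 at 3-qA2-617 to 3528 at 17-qE1.1-7037, with 9 loci above 1000, 21 between 100 and 1000 and 20 below 100. The 12 strongest loci held 78.0% of the summed mean level. Per kilobase of span the order was different. The exonic locus 17-qC-935, only 1241 bases long, led with 534 mean RPM per kilobase, followed by 4-qD3-2082 with 320 and 15-qE1-3710 with 214, whereas 17-qE1.1-7037 had 141. The median locus had 11.1 mean RPM per kilobase.

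**Figure D1:**
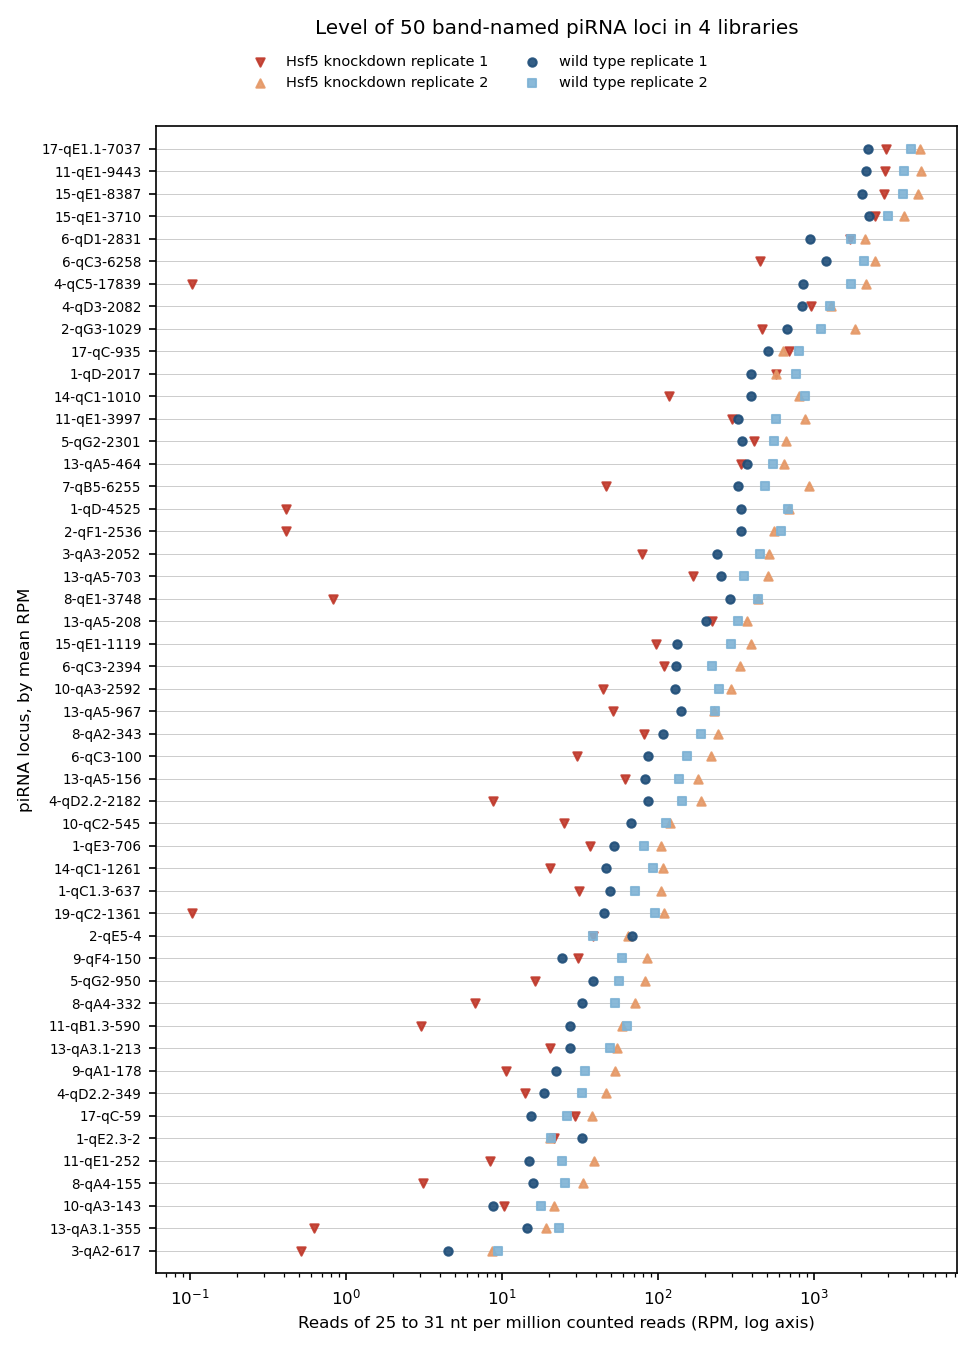
Level of each of the 50 loci as RPM (log axis) in the 2 Hsf5 knockdown libraries (triangles) and the 2 wild-type libraries (circles and squares), with the loci ordered by mean RPM. Knockdown replicate 1 was the lowest library at 36 loci and knockdown replicate 2 the highest at 39, and 6 loci lay under 5% of the lowest other library in knockdown replicate 1 alone. Over all 214 loci the same counts were 158, 136 and 28, in the order given.

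Summed over the 50 loci, the 2 genotypes overlapped. The loci took 18405 and 39542 RPM in knockdown replicates 1 and 2, against 19069 and 32754 RPM in wild type replicates 1 and 2. The means were 28974 ± 14946 RPM in the knockdown and 25912 ± 9677 RPM in the wild type (SD, n = 2 each; exact two-sided permutation p = 1). Both wild-type libraries lay between the 2 knockdown libraries. With 2 libraries a group there are 6 assignments, and the smallest p such a test can give is 0.33. As a share of the 25 to 31 nt reads the loci took 4.07% and 6.14% in the knockdown libraries, against 3.69% and 5.69% in the wild-type libraries (exact permutation p = 0.667). In whole testis, fewer cells of a type and less RNA per cell cannot be told apart.

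At the level of single loci, none was called different between the genotypes. By the quasi-likelihood test of edgeR, adjusted after Benjamini-Hochberg, 0 of the 50 loci passed an adjusted p of 0.05, where the background was 0% of the 214 loci tested, and the smallest adjusted p was 0.997. Before adjustment 0 of the 214 were under 0.05, and DESeq2 found 0. The median log2 difference of knockdown over wild type was 0.08 over the 50 loci, of which 28 were positive and 22 negative, and -0.05 over all 214. This balance turned with the scaling: scaled by mature miRNA reads, the median of the 50 was -0.069, with 20 positive and 30 negative, and that of all 214 was -0.17. With the replicate number as a block the median of the 50 was -0.071, with 18 positive and 32 negative. The fitted coefficient of variation between replicates was 0.878, and in data simulated with that spread over the 214 loci the same test recovered 0% of 40 changes of 4-fold. With a simulated coefficient of 0.2 it recovered 100% of them, along with 5 false calls. At 1 of the 50 loci, 17-qC-59, the knockdown RPM were both higher than either wild-type RPM, where the background was 2.34% of all loci. They were both lower at 0 of the 50, with a background of 0.467%.

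The 4 strongest loci formed a close group in every library. 17-qE1.1-7037 (chr17:66513807-66538753, plus strand, 99.3% of placed reads intergenic) took 2885 and 4812 RPM in knockdown replicates 1 and 2, against 2227 and 4186 RPM in wild type replicates 1 and 2. The locus 11-qE1-9443 (chr11:103315153-103344522, plus strand, 96.5% in introns of the long non-coding gene Gm39397) took 2881 and 4837 RPM in the knockdown libraries, against 2166 and 3785 RPM in the wild-type libraries. At 15-qE1-8387 (chr15:78531885-78554732, minus strand, 92.3% intergenic) the levels were 2829 and 4654 RPM in the knockdown libraries, against 2037 and 3735 RPM in the wild-type libraries. In all 3 the wild type and the knockdown overlapped, with wild type replicate 1 lowest and knockdown replicate 2 highest. The fourth, 15-qE1-3710 (chr15:83238049-83251481, minus strand, 99.2% in exons of the long non-coding gene 1700001L05Rik), took 2452 and 3804 RPM in the knockdown libraries, against 2246 and 2999 RPM in the wild-type libraries. Fitted log2 differences of the 4 lay between 0.25 (SE 1.11) at 15-qE1-3710 and 0.38 (SE 1.07) at 11-qE1-9443, each with an adjusted p of 0.997 by edgeR with Benjamini-Hochberg adjustment. The differences were smaller than their standard errors, and neighbours in this order did not differ beyond the spread within a group.

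Another 4 strong loci were present at wild-type levels in both knockdown libraries. 6-qD1-2831 (chr6:87939438-87971149, minus strand) took 1703 and 2130 RPM in the knockdown libraries, against 951 and 1735 RPM in the wild-type libraries, and its placed reads were 43.4% intergenic and 40.7% intronic. The short exonic locus 4-qD3-2082 (chr4:135354107-135357509, plus strand, in 1700029M20Rik) took 959 and 1291 RPM in the knockdown, against 843 and 1265 RPM in the wild type. Also exonic, 17-qC-935 (chr17:49419299-49420539, minus strand, in 1700008K24Rik) took 696 and 639 RPM in the knockdown, against 509 and 807 RPM in the wild type. At 1-qD-2017 (chr1:91330778-91333751, minus strand, exons of 1700020N18Rik) both knockdown values, 573 and 569 RPM, lay between the wild-type values of 397 and 765 RPM. The last 3 of them spanned only 3403, 1241 and 2974 bases, and all 4 had a smaller share of 29 to 31 nt reads than the median locus. The groups overlapped at each, with log2 differences from -0.025 (SE 1.19) at 1-qD-2017 to 0.51 (SE 1.23) at 6-qD1-2831.

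The other strong loci had less in knockdown replicate 1. 6-qC3-6258 (chr6:81870799-81888820, minus strand, 76.5% intergenic) took 453 and 2456 RPM in the knockdown libraries, against 1204 and 2110 RPM in the wild-type libraries. The locus 2-qG3-1029 (chr2:150969368-151000514, plus strand, introns of Gm14149) took 468 and 1848 RPM in the knockdown, against 673 and 1107 RPM in the wild type. And 14-qC1-1010 (chr14:45164280-45188274, plus strand, introns of Gm41142) took 117 and 805 RPM in the knockdown, against 393 and 878 RPM in the wild type. The intron placements of 2-qG3-1029 and 14-qC1-1010 rest on only the 8.84% and 14.1% of their reads that had a single place. In each of these 3 loci knockdown replicate 1 was the lowest library, and the log2 differences of -0.19 (SE 1.31), 0.38 (SE 1.28) and -0.46 (SE 1.31), in the order named, were within their errors.

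A group of 6 loci were nearly silent in knockdown replicate 1 and fully present in knockdown replicate 2. They are the loci with an RPM in knockdown replicate 1 under 5% of the lowest of the other 3. This limit was met by 13.1% of all 214 loci and set with earlier results of these data known. It was met by 20 of the 50 other band-named loci and by 2 of the 114 loci named after a host gene, so it is not particular to the loci described here. The strongest of the 6 is 4-qC5-17839 (chr4:94168389-94219860, minus strand), whose placed reads all lay in introns of the long non-coding gene Gm12648. It had 1 and 23504 reads in knockdown replicates 1 and 2, against 9522 and 15951 reads in wild type replicates 1 and 2. Per library depth that was 0.104 and 2156 RPM in the knockdown, against 856 and 1722 RPM in the wild type. The wild-type values lay between the knockdown values. 1-qD-4525 (chr1:92920067-92924789, minus strand, 95.6% intergenic) had 4 and 7542 reads in the knockdown, against 3812 and 6324 reads in the wild type. Exons of Gm14244 held 91.2% of the placed reads of 2-qF1-2536 (chr2:127533774-127545631, plus strand), which had 4 and 6035 reads in the knockdown, against 3779 and 5746 reads in the wild type. The intronic locus 8-qE1-3748 (chr8:110844298-110859088, plus strand, in Gm35543) had 8 and 4753 reads in the knockdown, against 3215 and 4074 reads in the wild type.

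Lower in abundance were 19-qC2-1361 (chr19:37232073-37241265, minus strand, in 4931408D14Rik), with 1 and 1194 reads in the knockdown, against 500 and 894 reads in the wild type, and 13-qA3.1-355 (chr13:25089583-25119015, plus strand, in 4932702P03Rik), with 6 and 209 reads in the knockdown, against 162 and 215 reads in the wild type. Just outside the limit was 4-qD2.2-2182, named here after its values were seen, with 85 and 2073 reads in the knockdown, against 964 and 1314 reads in the wild type, its level in knockdown replicate 1 being 10.2% of the lowest other library. The 6 loci sat on 6 different chromosomes. Together they held 24 and 43237 reads in knockdown replicates 1 and 2, against 20990 and 33204 reads in wild type replicates 1 and 2. Without them the remaining loci took 18403 and 35575 RPM in the knockdown libraries, against 17181 and 29169 RPM in the wild-type libraries, and knockdown replicate 2 was still the highest library.

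Because the knockdown libraries went opposite ways, which of them is kept decides the outcome. Without knockdown replicate 2, 9 of the 50 loci were called lower (edgeR, Benjamini-Hochberg adjusted), where 15.9% of all 214 loci were called lower. These were the 6 nearly silent loci together with 4-qD2.2-2182, 11-qB1.3-590 and 7-qB5-6255, and the median log2 difference was -0.95, with 47 of 50 negative. The lone knockdown library was assumed to vary like the wild type in this fit. Without knockdown replicate 1 the same test called 0, and the median was 0.65, with 47 of 50 positive. Over all 214 loci the median was -0.62 without knockdown replicate 2 and 0.40 without knockdown replicate 1. The direction of each shift was thus shared by the loci as a whole. With both libraries in the fit, 0 were called.

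Among weaker loci, 17-qC-59 and 9-qF4-150 had the lowest unadjusted p of the positive differences, and 13-qA3.1-355 and 13-qA5-967 of the negative ones. At 17-qC-59 (chr17:50544687-50554569, plus strand, 94.1% in exons of AY702103) the levels were 29.4 and 38.1 RPM in the knockdown, against 15.3 and 26.3 RPM in the wild type, with a log2 difference of 0.70 (SE 0.89; edgeR adjusted p = 0.997). Both knockdown libraries stood above both wild-type libraries, knockdown replicate 1 only just. 9-qF4-150 (chr9:122609738-122634534, minus strand) took 30.9 and 85.8 RPM in the knockdown, against 24.5 and 59.2 RPM in the wild type. At 13-qA5-967 (chr13:52250771-52278194, plus strand, 91.1% in exons of 4921525O09Rik) the values were 51.7 and 230.3 RPM in the knockdown, against 141 and 234 RPM in the wild type. These last 2 loci overlapped between the genotypes. The weakest locus, 3-qA2-617 (chr3:20456836-20560363, minus strand, in Gm31466), had 5 and 95 reads in the knockdown, against 50 and 88 reads in the wild type, spread so thinly that reads covered 2.40% of its bases.

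Several loci hold near-identical copies of each other, and their levels cannot be fully separated. Of the reads of 14-qC1-1010, 75.1% also matched 14-qC1-1261, and of those of 6-qC3-100, 88.2% also matched 6-qC3-2394. Of the reads of 13-qA5-208, 55.4% also matched 13-qA5-464. Counting other places anywhere in the genome, not only in these loci, 6 loci had under 50% of their reads at a single place. The lowest was 2-qG3-1029 with 8.84%. The 5 loci of band 13-qA5 together, a sum that depends little on how such reads are split among them, took 846 and 1935 RPM in the knockdown libraries, against 1053 and 1605 RPM in the wild-type libraries. Knockdown replicate 1 was again lowest and knockdown replicate 2 highest.

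piRNA length separated knockdown replicate 1 from the other libraries more clearly than level did. Reads of 29 to 31 nt, the range of MIWI-bound piRNAs, made up 15.4% and 40.3% of the reads of the 50 loci in knockdown replicates 1 and 2, against 38.0% and 36.2% in wild type replicates 1 and 2. Knockdown replicate 1 stood alone, and the genotypes overlapped (27.9% ± 17.6 in the knockdown and 37.1% ± 1.30 in the wild type; SD, n = 2 each; exact permutation p = 1). As levels, the 29 to 31 nt reads took 2838 and 15951 RPM in the knockdown, against 7250 and 11848 RPM in the wild type. The 25 to 28 nt reads, the range of MILI-bound piRNAs, took 15568 and 23591 RPM in the knockdown, against 11819 and 20906 RPM in the wild type. Knockdown replicate 1 was thus below both wild-type libraries for the long reads and between them for the short reads. The shift ran through the whole set: among the 37 loci with at least 100 reads in every library, 36 had their lowest 29 to 31 nt share in knockdown replicate 1, and the exception was the 122-base locus 1-qE2.3-2. Among the other band-named loci it was 32 of 32, so the shift is not particular to the 50 loci.

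**Figure D2:**
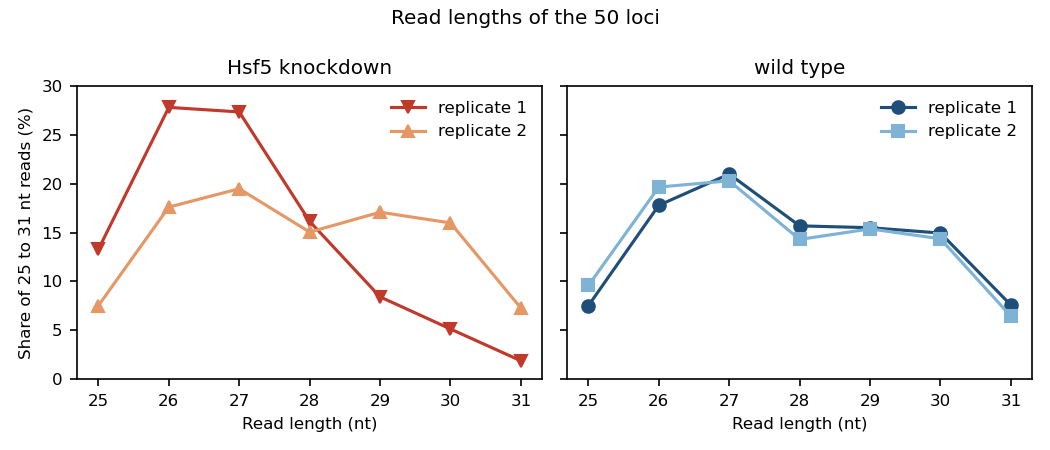
Share of the 25 to 31 nt reads of the 50 loci (%) at each read length (nt) in the Hsf5 knockdown libraries (left) and the wild-type libraries (right), 1 line per library. In knockdown replicate 1 the reads of 26 and 27 nt made up 27.8% and 27.3% and those of 30 nt 5.13%, whereas in the other 3 libraries those of 30 nt made up 14.4% to 16.0%.

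The 50 loci also differed in length among themselves. Over all libraries the 29 to 31 nt share ran from 9.84% at 17-qC-935 to 71.0% at 19-qC2-1361, with a median of 44.99%. The share was 7.02% and 10.6% in the knockdown libraries, against 12.3% and 9.85% in the wild-type libraries, at 17-qC-935. At 4-qC5-17839 it was 58.1% in knockdown replicate 2, against 60.1% and 54.6% in the wild type, the single read of knockdown replicate 1 giving no share. Summed over loci, the share was higher in the 50 loci than in the other band-named loci in 4 of 4 libraries, by 6.04 percentage points on average (SD 2.29, n = 4; exact sign-flip permutation p = 0.125, the smallest that 4 libraries allow; 0.15 after Benjamini-Hochberg adjustment over 6 comparisons). Against the loci named after a host gene it was higher by 11.05 points on average, also in 4 of 4 libraries and with the same p. These comparisons were chosen after the values were seen.

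Loci rich in long piRNAs in the wild type tended to be lower in knockdown replicate 1. In the 7 loci with a wild-type 29 to 31 nt share of up to 30%, the level in knockdown replicate 1 had a median of 93.5% of the wild-type mean, with a range of 71.6% to 127%. In the 15 loci from 30% to 45% the median was 66.4%. It was 24.9% in the 21 loci from 45% to 60% and 23.9% in the 7 loci above 60%. In knockdown replicate 2 the medians were 120.2%, 162%, 165% and 156% of the wild-type mean, from the lowest to the highest share. Across the 50 loci the wild-type share and the log2 ratio of knockdown replicate 1 to the wild-type mean had a Spearman's rho of -0.71 and a Pearson's r of -0.42, against a rho of 0.29 and an r of 0.42 for knockdown replicate 2. These are descriptions across loci of the same libraries, which are not independent and whose axes share the wild-type libraries. The level of a locus also includes its 29 to 31 nt reads, which were fewer in knockdown replicate 1, so part of the relation may follow from arithmetic. The bounds of the ranges were set after the values were seen.

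**Figure D3:**
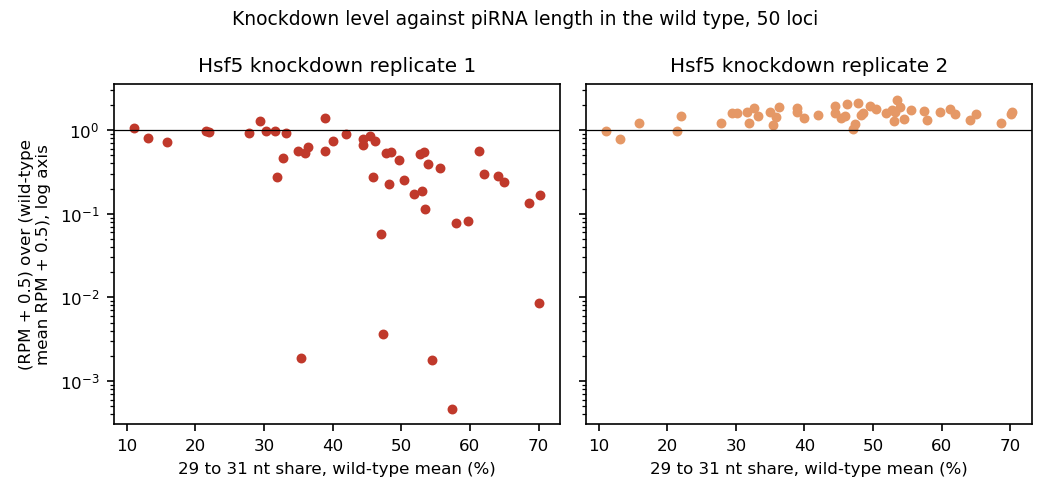
Ratio of the level in each Hsf5 knockdown library to the wild-type mean (RPM with 0.5 added, log axis) against the mean wild-type share of 29 to 31 nt reads (%), 1 point per locus and 1 panel per knockdown library. In knockdown replicate 1 the points fall away to the right, and the nearly silent loci are at the bottom, whereas in knockdown replicate 2 the points stay near or above the line at 1.

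Other features of piRNA processing differed little between libraries. Reads beginning with U made up 90.6% and 91.0% in the knockdown libraries, against 90.2% and 89.7% in the wild-type libraries (exact permutation p = 0.33). The groups did not overlap, by a margin of less than 1 percentage point, and the sign turned when each distinct sequence was counted once (-0.992 points in place of 0.864). An A at base 10, which marks piRNAs made by the ping-pong cycle of PIWI cleavage, was present in 23.99% and 24.4% of reads in the knockdown, against 24.9% and 25.2% in the wild type (exact permutation p = 0.33). The groups did not overlap here either, by less than 1 percentage point. Over all loci the A shares did overlap (exact permutation p = 0.667). They were 24.8% and 25.4% in the knockdown, against 25.2% and 25.6% in the wild type. The genomic base after the 3′ end of the read, which tends to be U where precursors are cut one piRNA after another, was U for 26.3% and 26.2% of reads in the knockdown, against 26.4% and 26.1% in the wild type. The mean share of U over bases 2 to 10 after the end was 24.9% and 25.2% in the knockdown, against 25.4% and 25.3% in the wild type. The first base after the end was thus U slightly more often than its surroundings in every library, and the genotypes overlapped.

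Along the loci, uniquely placed piRNAs did not arise evenly. At 15-qE1-3710 and 6-qC3-6258, with 98.8% and 99.8% of reads at a single place, only 2.36% and 2.75% of the placed reads, in the order named, arose in the first 50% of the span. At 15-qE1-8387 and 4-qC5-17839 the first 50% held 82.5% and 80.1%. Reads covered a median of 35.1% of the bases of a locus, and the most abundant sequence made up a median of 4.17% of its reads.

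**Figure D4:**
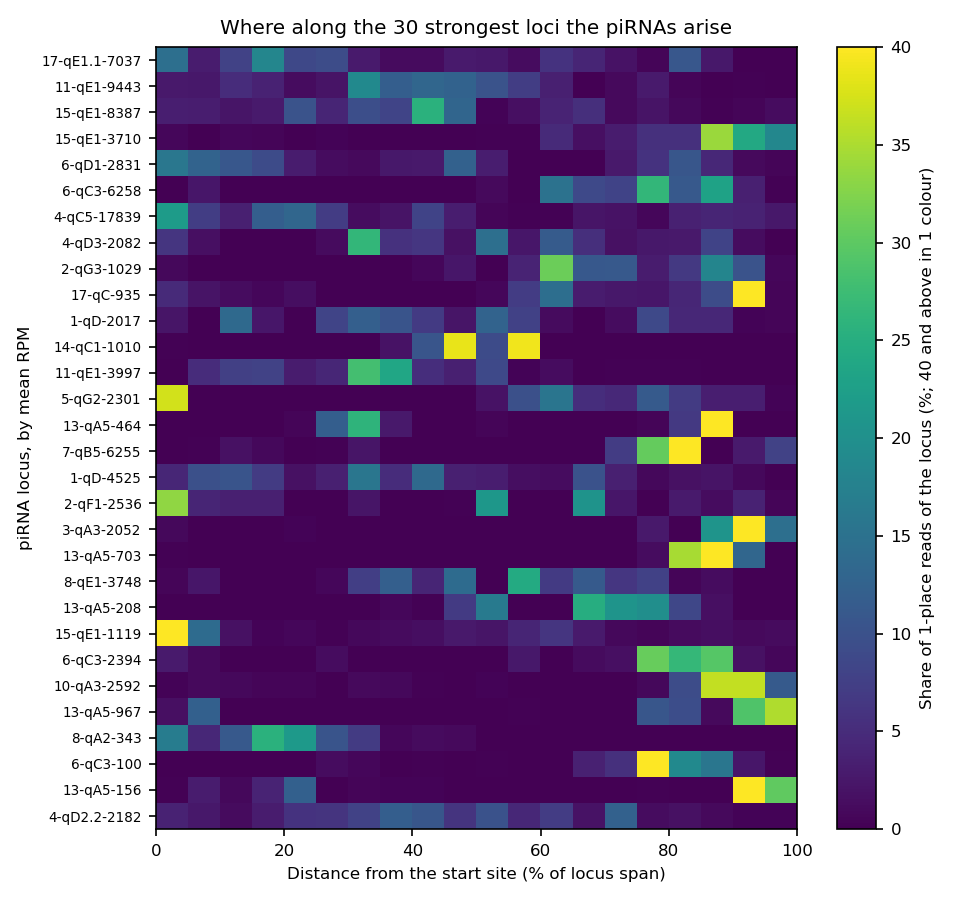
Share of the uniquely placed reads (%, colour) in each of 20 equal bins from the start site (0%) to the end (100%) of the span for the 30 strongest of the 50 loci, over all 4 libraries. Some loci, such as 15-qE1-3710 and 6-qC3-6258, gave nearly all of their reads near the end, and others, such as 15-qE1-8387, mainly in the first 50%. For loci with few reads at a single place, such as 2-qG3-1029 with 8.84%, the row shows only those reads.

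The start sites of the loci shared a sequence feature that the rule on names did not use. The MYB core motif, here CAACNG or TAACNG on either strand, was found within a window of 300 bases centred on the start at 48 of the 50 loci, or 96%. The share was also 96% in the other band-named loci, 52.6% in the loci named after a host gene and 72.9% in all 214. In windows of the same size 2000 bases upstream, a comparison added after the values were seen, 42% of the 50 loci had a match and 47.7% of all loci. Of the 131 matches at the 50 loci, 39 began 1 to 30 bases upstream of the start. Windows of the 50 loci had a median of 52.8% G and C and those of the host-gene loci 68.7%, so base composition differed between these lists. The 2 loci without a match were the coding-sequence locus 2-qE5-4 and 11-qE1-252. The core of a heat shock element, here GAANNTTC or TTCNNGAA, was found at 6 of the 50 loci, or 12%, and at 11.7% of all 214. All 6 loci that were nearly silent in knockdown replicate 1 held a MYB core and 1 of them, 2-qF1-2536, a heat shock core. A match is a stretch of letters, and no binding was measured.

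Start regions of 4 loci are printed here from the mm39 genome on the strand of the locus, from 100 bases before the start to 20 bases from the start on, with matches to the MYB core in capitals. The first pair were abundant in both knockdown libraries and the second pair were nearly silent in knockdown replicate 1, and they were picked after their values were seen.
17-qE1.1-7037, chr17:66513707-66513826, plus strand: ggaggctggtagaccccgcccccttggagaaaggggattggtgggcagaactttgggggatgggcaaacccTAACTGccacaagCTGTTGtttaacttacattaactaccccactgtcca
15-qE1-8387, chr15:78554713-78554832, minus strand: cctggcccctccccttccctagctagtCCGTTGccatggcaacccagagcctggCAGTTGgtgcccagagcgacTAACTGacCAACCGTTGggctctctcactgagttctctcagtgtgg
4-qC5-17839, chr4:94219841-94219960, minus strand: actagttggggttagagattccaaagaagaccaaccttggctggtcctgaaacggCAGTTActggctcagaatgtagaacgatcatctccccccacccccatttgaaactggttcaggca
8-qE1-3748, chr8:110844198-110844317, plus strand: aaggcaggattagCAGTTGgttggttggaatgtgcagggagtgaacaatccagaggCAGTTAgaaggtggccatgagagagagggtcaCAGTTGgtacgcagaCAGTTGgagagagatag

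The stretches held 2, 5, 1 and 4 matches, in the order printed, and in that of 15-qE1-8387 the last pair of matches overlap. The 1 match of 4-qC5-17839 began at -45 bases from the start (negative is upstream). Over all 6 loci nearly silent in knockdown replicate 1, 2 of 16 matches began 1 to 30 bases upstream of the start. At the 50 loci it was 39 of 131. Whether the 2 kinds of locus differ in this was not tested.

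**Figure D5:**
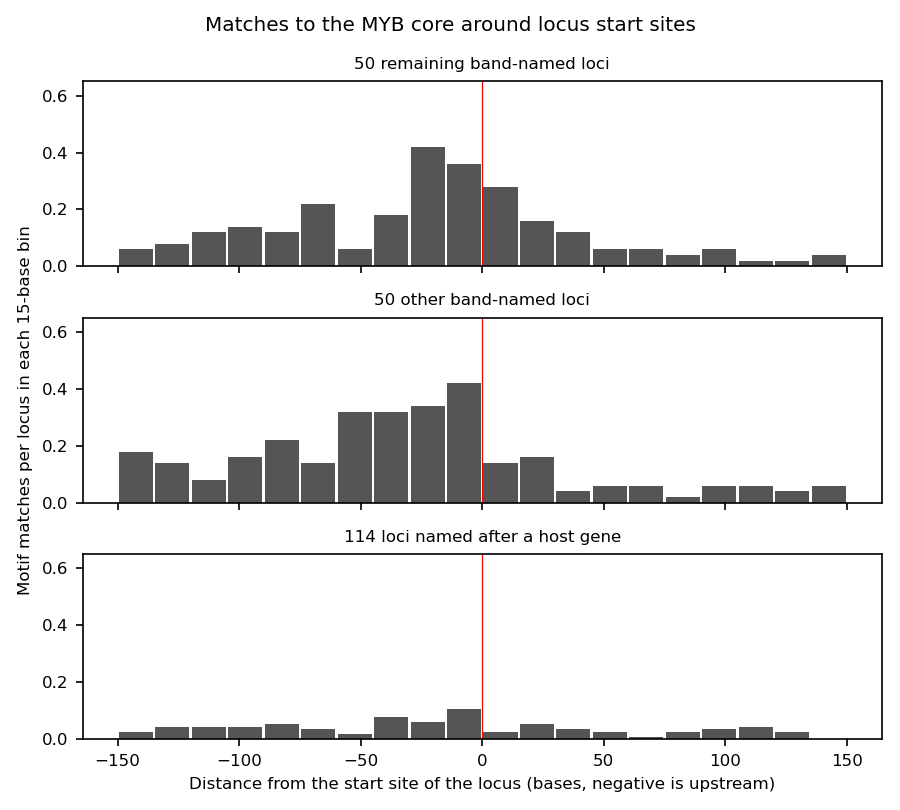
Matches to the MYB core per locus by distance from the start site (bases, negative is upstream) at the 50 loci, the other 50 band-named loci and the 114 loci named after a host gene, with the start at 0 (red line). In the 50 loci the matches were densest in the 30 bases before the start, and the host-gene loci had few at any distance.

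The libraries themselves also differed in counted reads and in the miRNAs listed as markers of cell types. Counted reads were 9619666 and 10900306 in knockdown replicates 1 and 2, against 11117460 and 9260452 in wild type replicates 1 and 2. miRNAs of spermatocytes (miR-34b-5p, miR-34c-5p and miR-449a-5p) summed to 1237 and 1196 RPM in the knockdown, against 845 and 1171 RPM in the wild type, nearly all of it miR-34c-5p, and were not low in knockdown replicate 1. miRNAs of spermatogonia (5 in all) summed to 108 and 42.6 RPM in the knockdown, against 77.1 and 73.3 RPM in the wild type. miRNAs of testis somatic cells (3 in all) summed to 7902 and 7449 RPM in the knockdown, against 6629 and 6330 RPM in the wild type, most of it miR-143-3p. The other 2 were lowest in knockdown replicate 2: miR-202-5p had 556 and 188 RPM in the knockdown, against 557 and 394 RPM in the wild type, and miR-126a-3p had 829 and 262 RPM in the knockdown, against 786 and 706 RPM in the wild type. miRNAs of blood (3 in all) summed to 40.1 and 27.6 RPM in the knockdown, against 34.5 and 33.4 RPM in the wild type. The sum of every list here was highest in knockdown replicate 1. Of these markers miR-34b-5p was near 0 in every library, at 0.180 to 0.216 RPM. The spermatogonial miR-290a-5p was at 0 in both knockdown libraries, against 0.540 and 0.108 RPM in the wild type, too few reads to compare. The part of cell composition in the levels of the 50 loci was not tested.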

How the data were processed

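Per the labels' protocol, adaptors were ligated to both ends of small RNAs and inserts of 18 to 40 bases selected. The submitters' processing notes list cutadapt and mm39, and the aligner is not given in the sources used here. Raw counts, made by the authors for each sequence, library and annotation, were deposited in 12700077 lines. Each sequence was counted once per library and given 1 class and locus name over all libraries, that with the largest summed count. A further column of per-library scaling factors, 1 in all, was not used. The 50 loci, the bands left out and the marker lists were chosen with earlier results of these data known.

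Reads of 25 to 31 nt were summed per locus and given as RPM, per 1000000 counted reads of the library. All 214 loci passed a filter of 1 RPM in at least 2 libraries, among them all 50 described here. Counts were tested with edgeR 4.0.16 in R 4.3.3 (quasi-likelihood, robust, library size the total of counted reads) with Benjamini-Hochberg adjustment over the 214 loci at 0.05. The same test was then run on data simulated from the means of these counts, at the fitted coefficient of variation and at 0.2. DESeq2 1.42.0 was an alternative. Sums and shares were compared by exact two-sided permutation over the 6 assignments. Sequences were matched exactly to GRCm39, the genome of mm39, and reads with a single place were annotated with GENCODE M39. Locus spans are those in the deposited names.

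Named with values are the 12 loci of highest mean RPM, the 2 of lowest unadjusted p in each direction, those whose groups do not overlap, the 4 strongest with 1 library under 5% of the lowest other, and the weakest. Libraries of 1 group differed far beyond sampling noise (chi-square per degree of freedom 4388.5 in the knockdown and 536 in the wild type), so none was a copy of another in its group. At these depths 3 counts, the limit that a count of 0 allows, equal 0.270 to 0.324 RPM, counting error only, and reads without molecular identifiers are not independent molecules.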

Additional observations from a re-analysis of the deposited data

How the results depend on the processing

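The count of 0 loci called held under TMM factors, DESeq2, scaling by mature miRNA reads, no filter, the names as deposited, sequences with 1 name, reads of 24 to 33 nt and the replicate block. Leaving out 1 library at a time gave 0 to 34 loci called of 214 and 0 to 9 of the 50, the higher values without knockdown replicate 2. The block rests on numbers shared by only 2 pairs, whose deviations correlated at 0.50 over all loci, and nothing in the labels ties equal numbers. It changed no call but moved the loci nearly silent in knockdown replicate 1 far down, to a log2 difference of -5.87 at 4-qC5-17839 (-0.26 without the block), -4.64 at 1-qD-4525 (-0.57), -4.72 at 2-qF1-2536 (-0.79), -4.11 at 8-qE1-3748 (-0.74) and -2.25 at 13-qA3.1-355 (-0.93). The median log2 difference of all loci was 0.10 with TMM factors, which were 0.661 in knockdown replicate 1 and 1.12 to 1.19 in the others, and -0.17 when scaled by miRNA reads, in place of -0.05.

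The knockdown minus wild-type difference of the summed level, 3062 RPM, ran from -7506 to 13630 with 1 library left out. It was negative without knockdown replicate 2 and without wild type replicate 1. That of the 29 to 31 nt share, -9.22 points, ran from -21.7 to 3.24, positive without knockdown replicate 1. That of the 5′ U share, 0.864 points, was -0.992 with each distinct sequence counted once, and 0.620 to 1.11 with 1 library left out.

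Of 160 values of the 20 named loci under the other alternatives, 5 changed sign. They were 4-qD3-2082 at -0.086 and 17-qC-935 at -0.19 when scaled by miRNA reads, and 1-qD-2017 at 0.47 with TMM factors, 0.19 with DESeq2 and 0.052 with the replicate block. With 1 library left out the log2 difference changed sign at 18 of the 20 named loci, 6-qD1-2831 and 17-qC-59 being the exceptions. It ran from -0.15 to 0.79 at 17-qE1.1-7037, -0.047 to 0.83 at 11-qE1-9443, -0.029 to 0.88 at 15-qE1-8387, -0.097 to 0.54 at 15-qE1-3710, -1.87 to 0.57 at 6-qC3-6258 and -0.17 to 0.42 at 4-qD3-2082. It ran from -0.93 to 1.05 at 2-qG3-1029, -0.27 to 0.39 at 17-qC-935, -0.42 to 0.52 at 1-qD-2017, -2.44 to 0.34 at 14-qC1-1010, -0.44 to 1.25 at 9-qF4-150, -4.92 to 0.022 at 13-qA3.1-355, -1.86 to 0.30 at 13-qA5-967 and -3.75 to 0.32 at 3-qA2-617. For loci nearly silent in knockdown replicate 1 it ran from -13.60 to 0.74 at 4-qC5-17839, -10.27 to 0.43 at 1-qD-4525, -10.17 to 0.21 at 2-qF1-2536 and -8.78 to 0.26 at 8-qE1-3748, the low ends resting on 1 to 8 reads. The cause was not tested.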
